A study of Mus musculus with 6 samples.

Results

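The immediate-early transcription factors measured here were 10 genes, taken by symbol from the 56884 gene features of 6 single-cell RNA-seq libraries. They were the Fos family members Fos and Fosb, the Jun family members Jun, Junb and Jund, the early growth response genes Egr1, Egr2 and Egr3, the orphan nuclear receptor gene Nr4a1 and the stress-response gene Atf3. All 10 symbols were found in every library. The study deleted genes of secreted ligands from mural cells with Pdgfrb(BAC)-CreERT2, a tamoxifen-inducible Cre driven by the Pdgfrb locus, which is active in pericytes and smooth muscle cells and to a limited extent in fibroblasts. The Bdnf iPCKO and Hgf iPCKO samples were lungs of postnatal day 21, and the Nodal iPCKO sample was cerebral cortex of postnatal day 12. Each mutant had a control carrying the same floxed alleles (Bdnf lox/lox, Hgf lox/lox or Nodal lox/lox) without CreERT2, and all mice received 50 µg of tamoxifen on each of postnatal days 1 to 3. Every library was 1 pool of 2 mice, loaded with 40000 cells, so there was 1 library per genotype and no test between genotypes could be made.

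Immediate-early genes are transcribed within minutes of a stimulus, without new protein synthesis, from factors already present in the cell such as SRF, its ETS partners and CREB. Fos and Jun proteins pair through leucine zippers to form AP-1, Egr proteins bind GC-rich elements through zinc fingers, Nr4a1 binds DNA without a known physiological ligand, and Atf3 belongs to the ATF/CREB family and is induced by many kinds of stress. Growth factors, calcium entry, stretch and neuronal activity induce them in living tissue, and enzymatic dissociation of tissue at body temperature is a well known inducer too. The lungs were digested with collagenase and dispase for 30 min at 37 °C and depleted of CD45+ and Ter119+ cells, and the cortex, after cold perfusion under anaesthesia, was digested with papain and Liberase for 30 min and again for 20 min at 37 °C. The methods name no transcription inhibitor. A response to dissociation and a difference present in the tissue therefore cannot be told apart from the levels alone, and each value below was read beside the other cell types of its library, the 2 control lungs and the free RNA. The study itself reported Fos, Fosb, Jun, Junb, Egr1 and Nr4a1 as higher in Nodal iPCKO astrocytes of its single-cell data. It also reported more nuclear FOS protein in GFAP+ astrocytes of mutant cortex sections, which were fixed and not dissociated. In cultured primary astrocytes it reported less nuclear FOS and FOSB protein after recombinant Nodal, and more after an inhibitor of TGF-beta receptors. Protein in sections or in cultured cells is a different measure from the RNA levels given here.

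The promoters of 3 members are shown because Egr2 held a serum response (CArG) box in the window read, Fos held 2 copies of the cAMP response core TGACG, and Atf3 held none of the motifs searched. The windows are the 150 bases before the start of each gene's canonical transcript, 5′ to 3′ on the gene's strand, read from GRCm39, the build of the files, with GENCODE vM39 canonical transcripts. They are chr10:67373542-67373691 (+) for Egr2, chr12:85520508-85520657 (+) for Fos and chr1:190915538-190915687 (-) for Atf3. Capitals mark matches to the motifs, on either strand.
Egr2: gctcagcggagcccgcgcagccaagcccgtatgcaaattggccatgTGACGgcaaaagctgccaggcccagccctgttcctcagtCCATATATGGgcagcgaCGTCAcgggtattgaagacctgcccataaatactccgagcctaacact
Fos: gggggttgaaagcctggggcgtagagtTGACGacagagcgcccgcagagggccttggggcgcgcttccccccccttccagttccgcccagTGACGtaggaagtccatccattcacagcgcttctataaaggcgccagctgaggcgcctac
Atf3: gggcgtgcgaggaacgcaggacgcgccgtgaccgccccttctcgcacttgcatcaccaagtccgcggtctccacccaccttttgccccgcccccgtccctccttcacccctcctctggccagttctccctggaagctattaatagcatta

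The search on both strands covered the CArG box, the full cAMP response element TGACGTCA, its core motif TGACG, which every full element also contains, and the AP-1 site, spelled TGANTCA. The CArG box was in 0.831% of 21770 protein-coding promoter windows of the same length, TGACGTCA in 1.48%, TGACG in 13.9% and TGANTCA in 3.61%. Among the members read, Egr1 and Egr3 not being among them, the CArG box was found in Egr2, at bases -65 to -56 from the start. A pair of TGACG matches lay around it. TGACG was also in Fos, Fosb, Junb, Jund and Nr4a1, while Jun and Atf3 had no match, and no member read held TGACGTCA or TGANTCA. These are matches of letters, not measured binding, and a missing match says only that the letters are not in the window.

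Barcodes with at least 1500 UMIs (700 in the Hgf libraries, which were shallower) were kept, giving between 3237 and 24311 barcodes per library with medians of 2841 to 7790 UMIs. They were assigned to cell types by marker genes, and 6.91 to 13.2% stayed unassigned. Names ending in "-like" state the marker list only. Cell types with at least 30 cells in both libraries of a pair were used, 17 in the Bdnf pair, 16 in the Hgf pair and 7 in the Nodal pair. Levels are the UMIs of a gene summed over the cells of a type and scaled to all UMIs of that type (CPM), with exact Poisson intervals. Differences are log2 ratios, mutant divided by control, whose exact intervals are conditional on the summed UMIs. All intervals are 95% and cover counting error only, not the spread between mice or libraries. Any 2 libraries shared between 21 and 457 kept barcodes, where random draws of the same sizes would share 17.8 and 457. The Hgf control and Hgf iPCKO libraries shared 108 and 116 with the Nodal iPCKO library, against 80.2 and 88.7. In pericyte-like cells Nodal had 190 UMIs in the control (108 CPM) and 0 of 2767560 UMIs in the mutant (up to 1.33 CPM by the exact interval), Hgf was 147 CPM in its control and 28.8 CPM in its mutant, and Bdnf had 5 and 2 UMIs, which could not show a difference at this depth. The mutant Hgf and Bdnf lungs were shallower per cell than their controls, with medians of 2841 against 3911 and 5056 against 7118 UMIs.

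In the lung the members stood highest in myofibroblast-like cells and lowest in alveolar epithelium, in all 4 libraries. Summed over the 10 genes, the level in myofibroblast-like cells was 44015 CPM in the Bdnf control, 41674 in the Bdnf iPCKO, 52466 in the Hgf control and 37575 in the Hgf iPCKO lung. Venous-like endothelial cells came next in each library, with 17834, 24028, 27836 and 27446 CPM for the summed members. AT1-like cells, the flat gas-exchange epithelium, had 2053, 3375, 2882 and 2699 CPM, and AT2-like cells, the surfactant producers, had 2749, 3966, 3668 and 2640 CPM. Within every library the distance from the highest to the lowest cell type was wider than any difference between libraries of 1 cell type. Neighbours in the order were not so far apart: in the Hgf iPCKO lung myofibroblast-like and venous-like cells were at 37575 and 27446 CPM, while pericyte-like cells ranged from 3510 to 9516 CPM over the 4 libraries. Barcodes with 20 to 200 UMIs are called free RNA here, and whether they also hold damaged or small cells was not tested. In the free RNA the summed members were at 6919, 8315, 8208 and 9277 CPM, so alveolar epithelium lay under the free RNA of its own library and myofibroblast-like cells well above it.

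**Figure D1:**
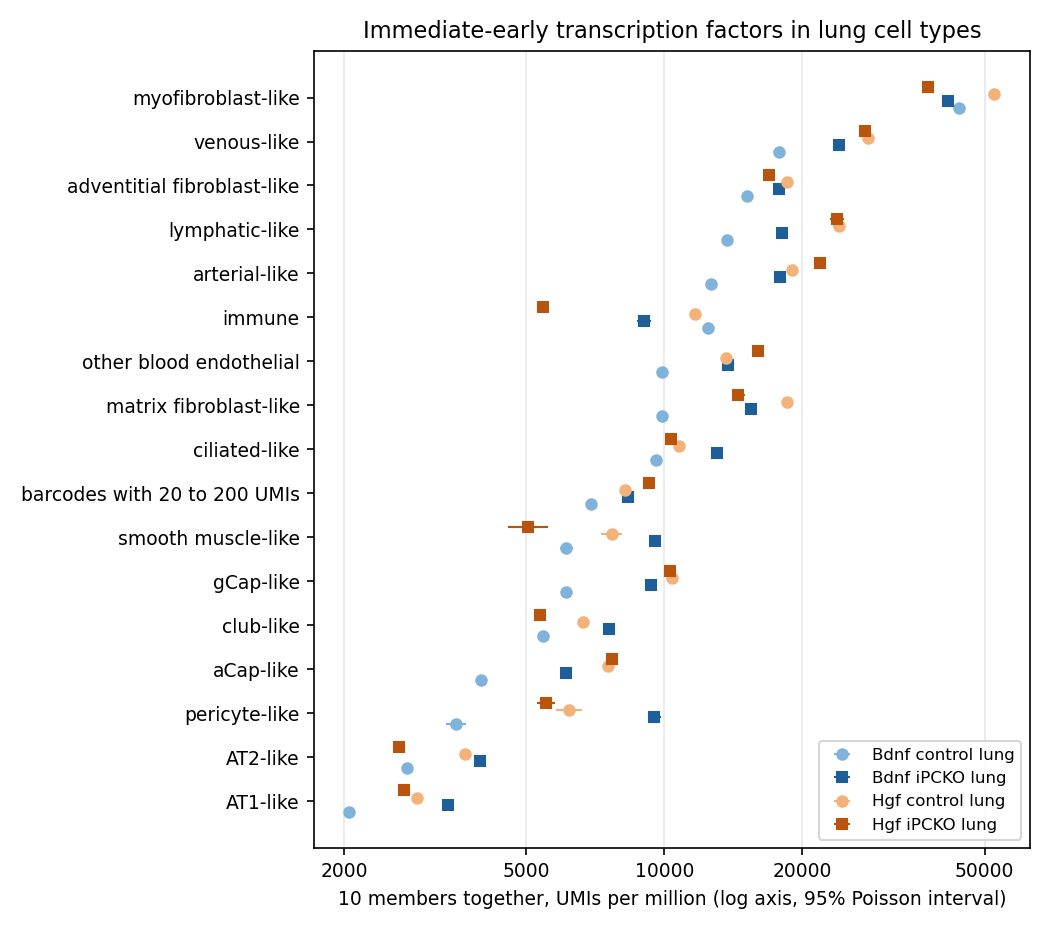
Level of the 10 members together in each lung cell type and in the free RNA (CPM, log axis), one point per library with its exact Poisson 95% interval. Myofibroblast-like cells are highest in all 4 libraries, between 37575 and 52466, and the Bdnf control (light blue) is the lowest point in 11 of 16 cell types.

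Single members followed this order with exceptions. Myofibroblast-like cells held the highest level of 8 of 10 members in the Bdnf control, 7 in the Bdnf iPCKO, 8 in the Hgf control and 6 in the Hgf iPCKO lung. Fos there was 15880, 15003, 13654 and 10634 CPM, and Egr1 was 11407, 11736, 13604 and 10556 CPM. Egr3 departed from the order: its highest level was in immune cells of the Bdnf control (227 CPM) and in arterial-like cells of the other 3 libraries (205, 132 and 163 CPM). Egr2 was highest in lymphatic-like cells of both Hgf libraries, at 159 and 164 CPM. Jund, which is known for a more constant expression than its relatives, spanned a narrower range, from 451 CPM in aCap-like to 1212 CPM in immune cells of the Bdnf control. Across the 66 library and cell type sums of the lung, the Pearson correlation between pairs of members on the log2(CPM + 1) scale ranged from 0.94 for Fos with Egr1 down to 0.29 for Jund with Egr3, and the sums share their 4 libraries.

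In the cortex the summed members were highest in vSMC-like cells, at 14416 CPM in the control and 22704 CPM in the Nodal iPCKO library. Fibroblast-like cells had 12395 and 12149 CPM, endothelial-like cells 11582 and 10971, and pericyte-like cells 9608 and 10726. Microglia-like cells followed with 6015 and 5045 CPM, astrocyte-like cells with 4659 and 7893, and neuron-like cells came last with 1841 and 2054. Vascular and fibroblast-like cells lay above the free RNA (6848 and 6289 CPM) in both libraries, microglia-like and neuron-like cells below it in both, and astrocyte-like cells below it in the control and above it in the mutant. Egr3 again did not follow, since it was highest in microglia-like cells, with 121 CPM in control and 202 CPM in mutant cells, and next in neuron-like cells.

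**Figure D2:**
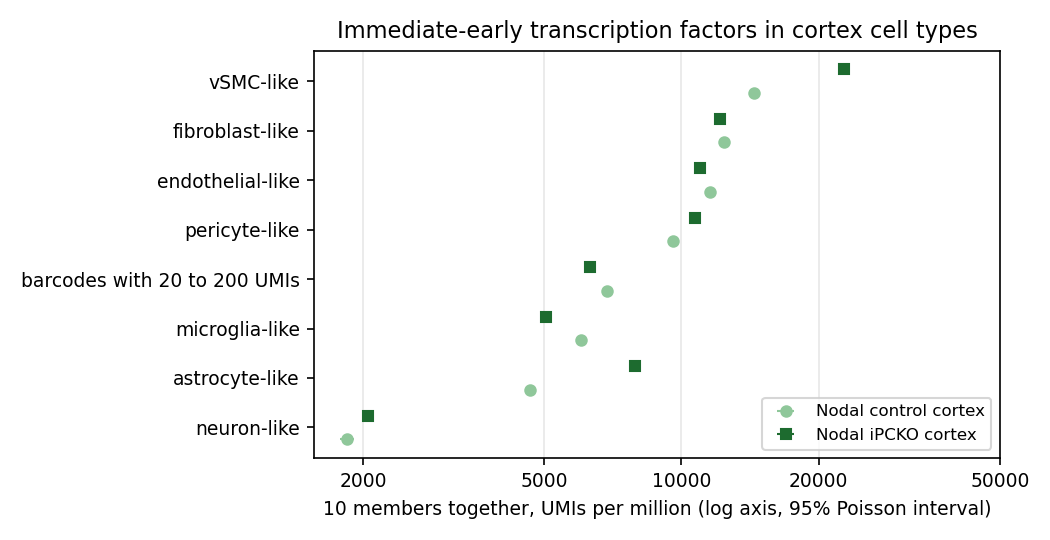
Level of the 10 members together in each cortex cell type and in the free RNA (CPM, log axis) in the Nodal control and Nodal iPCKO library, with exact Poisson 95% intervals that are mostly smaller than the points. Astrocyte-like and vSMC-like cells show the widest gap between both libraries, 4659 against 7893 and 14416 against 22704.

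The Nodal pair asked what losing the TGF-beta family ligand Nodal from pericytes changes in the neurovascular unit. All 10 members were higher in the mutant in 2 of the 7 cortex cell types, astrocyte-like and vSMC-like. In pericyte-like cells 9 of 10 were higher, with 6 intervals above 0 and 0 below, and in neuron-like cells 6 of 10, with 4 intervals above 0 and 0 below. In endothelial-like, fibroblast-like and microglia-like cells 4 of 10 were higher. The log2 ratio of the summed members was 0.76 in astrocyte-like and 0.66 in vSMC-like cells, against 0.16 in pericyte-like, 0.16 in neuron-like, -0.03 in fibroblast-like, -0.08 in endothelial-like and -0.25 in microglia-like cells. In the free RNA it was -0.12. With 1 control cortex, these ratios could not be set beside a difference between libraries without a deletion. Of the 70 member and cell type values, 4 were at least 2-fold higher in the mutant and 0 at least 2-fold lower, while 4.08% and 5.29% of all 102799 gene and cell type values passed the same sizes. All 4 were in astrocyte-like cells (3 of 10 members) and vSMC-like cells (1 of 10), and the other 5 cell types had 0. With cells thinned to 700 UMIs the count was 1 of 65 values, and the share of all values was not counted at that depth.

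In astrocyte-like cells, the glia whose end-feet cover cortical vessels, the values came from 735 control and 824 mutant cells. Fos was 1759 CPM in control and 3169 CPM in mutant cells, a log2 ratio of 0.85 (0.82 to 0.88). Fosb, which can replace Fos in AP-1, was 487 and 866 CPM (0.83). The interval of neither ratio reached 0, and the Jun partners were higher as well: Jun was 811 and 1146 CPM (0.50), Junb 172 and 286 CPM (0.74) and Jund 621 and 796 CPM (0.36). Egr1 was 477 CPM in control and 1006 CPM in mutant cells, a log2 ratio of 1.08 (1.02 to 1.13). Egr2, for which 51 and 223 UMIs were counted, was 6.80 and 25.2 CPM, the largest log2 ratio of the 10 at 1.89 (1.44 to 2.36). Egr3 rested on 48 and 126 UMIs and gave 1.15 (0.66 to 1.66). These were the 3 members past 2-fold in this cell type, where 3.22% of all genes tested were. Nr4a1, which is induced with the Egr genes by many stimuli, was 302 and 562 CPM (0.89), and Atf3 was 16.7 and 21.4 CPM with a log2 ratio of 0.36 whose interval, 0.03 to 0.70, came closest to 0.

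The difference in astrocyte-like cells was spread over many cells. With each cell thinned to 700 UMIs, the median cell held 1 member UMI in the control and 2 in the mutant. Cells with at least 10 member UMIs made up 10.5% of the control (8.36 to 12.9, exact binomial) and 21.1% of the mutant cells (18.4 to 24.1). Cells with 0 member UMIs made up 41.0% and 23.2%. The tenth of cells with most member UMIs held 53.2% of them in the control and 39.7% in the mutant, so the mutant UMIs were less concentrated in a few cells. An equal amount of free RNA would hold 4.79 and 4.40 member UMIs on average. The mean astrocyte-like cell held 3.04 in the control, less than its free RNA, and 5.35 in the mutant, more than its free RNA.

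**Figure D3:**
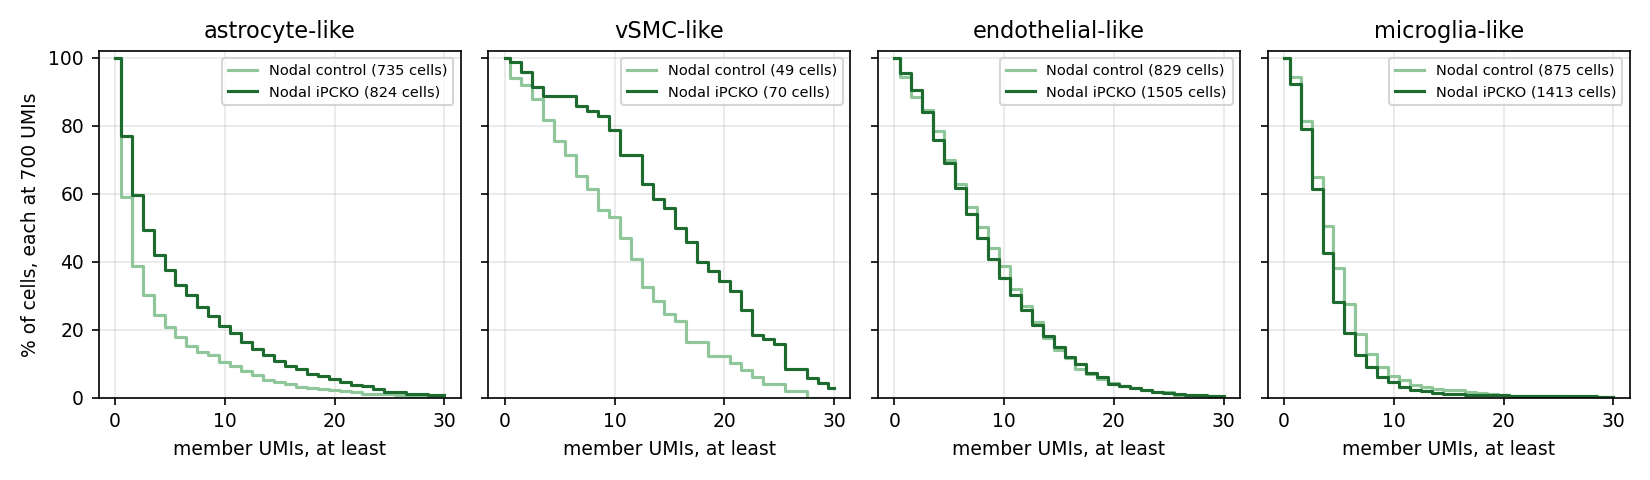
Share of cells (%, vertical axis) with at least the number of member UMIs on the horizontal axis, each cell thinned to 700 UMIs, for 4 cortex cell types of the Nodal control (light) and Nodal iPCKO (dark) library. At 10 UMIs the curves stand at 10.5% and 21.1% in astrocyte-like and at 53.1% and 78.6% in vSMC-like cells, while the endothelial-like curves nearly coincide, at 38.7% and 35.1%.

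Gfap, which was not among the astrocyte markers, had a UMI in 55.1% of control and 65.9% of mutant astrocyte-like cells. The summed members had a log2 ratio of 0.68 in cells with a Gfap UMI and 0.95 in cells without. Among all astrocyte-like cells, Aqp4 UMIs were in 94.0% of control and 94.1% of mutant cells. The 9 astrocyte markers together, Aqp4 among them, were at 30864 and 32907 CPM. These markers assigned the cells, so similar levels were partly set by the assignment, as for the own markers of the types below. In the same cells the 10 microglia markers summed to 138 and 125 CPM, the 9 endothelial markers to 164 and 179 CPM, the 8 pericyte markers to 94.7 and 76.7 CPM, the 7 neuron markers to 136 and 115 CPM and the 6 OPC markers to 206 and 306 CPM. Of all 11 lists of other types, 4 were higher in the mutant and 7 lower, from -4.01 for choroid plexus markers (27 and 2 UMIs) to 0.59 for fibroblast markers (64.4 and 97.2 CPM), with vSMC markers at -0.57. Median UMIs per astrocyte-like cell were 10220 and 11014 and the median mitochondrial share was 10.5% and 9.03%. Their part in the result was not tested.

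vSMC-like cells, the contractile cells of arterioles, rested on 49 control and 70 mutant cells. Fos was 4080 CPM in control and 6750 CPM in mutant cells (log2 ratio 0.73), and Egr1 was 1397 and 2736 CPM (0.97). Egr2, at 60.2 and 156 CPM on 28 and 81 UMIs, was the member past 2-fold with a log2 ratio of 1.38 (0.74 to 2.05), where 4.45% of all genes tested were. Egr3, with 8 and 16 UMIs, was the member whose interval held 0. The 6 vSMC markers summed to 18143 and 18277 CPM, and the 7 oligodendrocyte markers, myelin genes among them, to 114 CPM in control and 3.86 CPM in mutant cells. The part of that myelin RNA was not tested. Pericyte-like cells, from which Nodal was deleted, shared the direction at smaller sizes, with 9 of 10 members higher and a median log2 ratio of 0.15. Fosb was 1261 and 1654 CPM (0.39), while Fos was 2394 and 2454 CPM and Egr1 1285 and 1293 CPM, with intervals that held 0. In these cells endothelial markers were 362 and 496 CPM (0.45), astrocyte markers 96.9 and 57.5 CPM (-0.75) and microglia markers 173 and 106 CPM (-0.71), and 5 of 10 lists of other types were higher. The part of these in the result was not tested.

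The remaining cortex cells did not move as a set. In microglia-like cells Jun was 1508 CPM in control and 986 CPM in mutant cells (log2 ratio -0.61) and Egr1 535 and 348 CPM (-0.62), while Egr3 was 121 and 202 CPM (0.74) and Fosb 185 and 237 CPM (0.36). Markers of other types in these cells moved too: those of astrocytes were 165 and 98.7 CPM (-0.74), of border macrophages 122 and 89.7 CPM (-0.44) and of pericytes 52.7 and 73.3 CPM (0.48), and 3 of 11 lists were higher in the mutant. In neuron-like cells Egr1, a classical marker of neuronal activity, was 206 and 360 CPM (0.81), whereas Jun, Junb and Jund had intervals that held 0. In these cells 9 of 11 marker lists of other types were lower in the mutant, with a median log2 ratio of -0.68 and down to -3.11 for fibroblast markers, and their part was not tested. Egr3 and Nr4a1 were the members higher in the mutant in 7 of 7 cell types, with median log2 ratios of 0.74 and 0.14 and intervals above 0 in 5 types each. In endothelial-like cells Jun was 2628 and 2169 CPM (-0.28) and Fosb 1334 and 1514 CPM (0.18). The members of AP-1 thus differed in sign within the same cells.

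**Figure D4:**
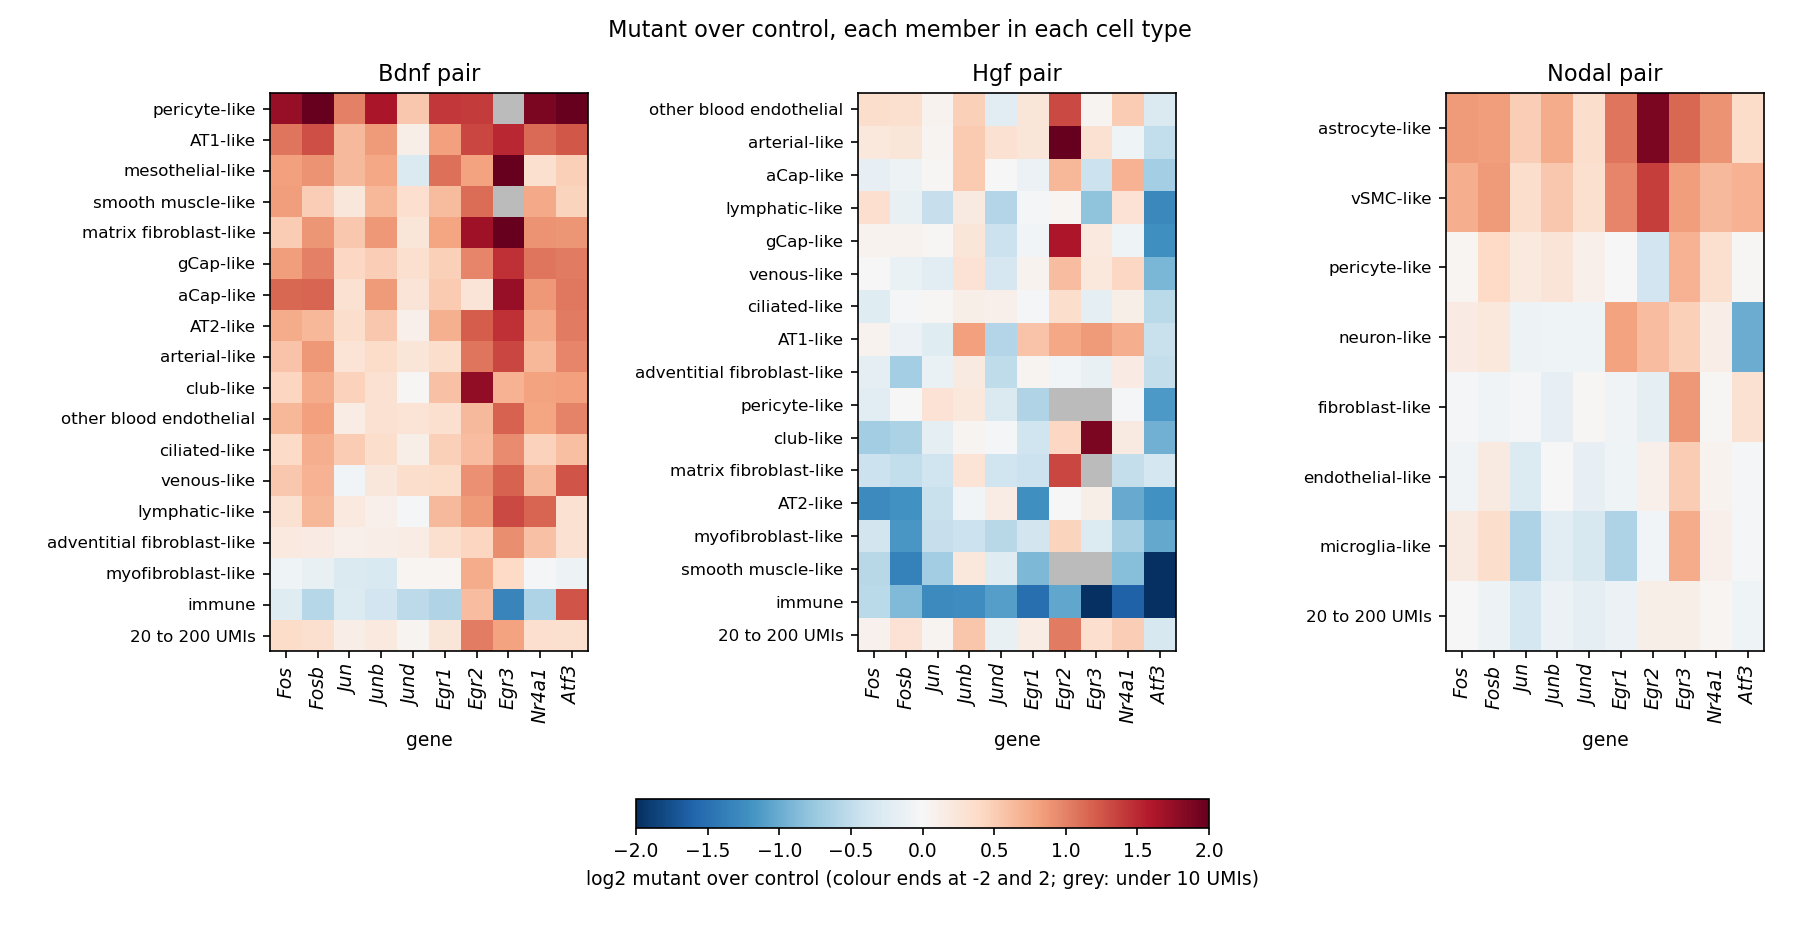
Log2 ratio of mutant over control for each member (columns) in each cell type (rows, ordered by the ratio of the summed members, with the free RNA last) in the 3 pairs. Red is higher and blue lower in the mutant, colours end at -2 and 2, and grey marks values under 10 UMIs. The Bdnf panel is mostly red, the Hgf panel has a blue Atf3 column (16 of 16 cell types), and the Nodal panel has red rows for astrocyte-like and vSMC-like cells.

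The Bdnf pair asked how the lung differs when pericytes lack the neurotrophin Bdnf. The summed members were higher in the mutant in 15 of 17 cell types, with a median log2 ratio of 0.50 and a range from -0.46 in immune to 1.44 in pericyte-like cells. Of 168 member and cell type values with at least 10 UMIs, 39 were at least 2-fold higher in the mutant, where 6.16% of all 247683 gene and cell type values were, and 1 was at least 2-fold lower, where 4.18% were. In the free RNA the summed members had a log2 ratio of 0.27, of the same sign. The difference was thus not particular to a cell type, and it was present, at a smaller size, in the free RNA.

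Egr3, Atf3 and Egr2 differed most and the 3 Jun genes least. Over cell types the median log2 ratio was 1.33 for Egr3, 0.91 for Egr2 and 0.53 for Egr1. Egr2 was higher in 17 of 17 cell types, from 0.26 in aCap-like to 1.77 in club-like cells, where it was 32.6 CPM in control and 111 CPM in mutant cells. Egr3 was at least 2-fold higher in 10 of the 15 cell types with enough UMIs, beside 6.16% of all values of this pair. In AT2-like cells, for example, it was 2.08 and 5.73 CPM on 118 and 286 UMIs. Atf3 had a median of 0.97 and was higher in 16 of 17 cell types, among them venous-like cells with 258 and 619 CPM (1.26). Nr4a1 followed at 0.76, Fosb at 0.74 and Fos at 0.56, each higher in 15 of 17 types. Junb had 0.37, Jun 0.30 and Jund 0.15, and Jund reached 2-fold in 0 types.

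Pericyte-like cells showed the widest difference, on 98 control and 112 mutant cells. Fos was 867 CPM in control and 2890 CPM in mutant cells, a log2 ratio of 1.74 (1.56 to 1.92). Fosb was 307 and 1225 CPM (1.99), Nr4a1 162 and 598 CPM (1.88), Junb 167 and 519 CPM (1.63) and Egr1 667 and 1773 CPM (1.41). Jun was 850 and 1702 CPM, Jund 465 and 678 CPM (0.54), and Atf3 rested on 5 and 32 UMIs, 12.5 and 90.8 CPM (2.86, with an interval of 1.49 to 4.58). Of the 9 members with at least 10 UMIs, 8 were at least 2-fold higher, beside 7.48% of all genes tested in that cell type. The pericyte-like cells with at least 10 member UMIs after thinning were 4.08% of the control (1.12 to 10.1) and 22.3% of the mutant cells (upper bound 31.2), yet the median cell held 1 and 2.

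In these cells the 8 pericyte markers summed to 11717 and 10962 CPM, the 6 myofibroblast markers to 1115 and 1169 CPM and the 7 smooth muscle markers to 862 and 925 CPM. The 5 club cell markers summed to 460 CPM in control and 1415 CPM in mutant cells, and the 7 immune markers to 7.50 and 11.3 CPM, with 5 and 6 of them at 0. AT1 markers were 240 and 413 CPM (0.78) and arterial markers 439 and 692 CPM (0.66). The gCap, aCap, arterial and venous marker lists all hold Egfl7, Pecam1, Cldn5, Tie1 and Clec14a. They were summed whole and counted as separate lists here and below. Of 11 lists of other types with at least 10 UMIs, 10 were higher in the mutant, with a median log2 ratio of 0.20, and all but that of the club cell markers (1.62) were under the 1.44 of the summed members. In pericyte-like cells of the Hgf pair the club cell markers were 538 and 2062 CPM while the summed members were 6192 and 5526 CPM. The part of this RNA of other cell types in the result was not tested. Against the other lungs, the Bdnf control pericyte-like cells were the lowest of the 4 libraries, at 3510 CPM for the summed members, and the Bdnf iPCKO cells the highest, at 9516 CPM.

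Epithelial and endothelial cells of the Bdnf pair shared the direction at smaller sizes. In AT1-like cells all 10 members were higher in the mutant and 6 were at least 2-fold higher (8.99% of all genes tested there). Fos was 419 and 881 CPM, Fosb 153 and 376 CPM and Nr4a1 44.6 and 97.5 CPM. Of 15 marker lists of other types in AT1-like cells 13 were higher, with a median log2 ratio of 0.32, from -0.27 for smooth muscle to 1.51 for mesothelial markers. In AT2-like cells, with 6223 and 7513 cells the most precisely measured type, Fos was 688 and 1149 CPM (log2 ratio 0.74) and Egr1 419 and 690 CPM (0.72). In these cells 12 of 15 marker lists of other types were higher in the mutant, with a median log2 ratio of 0.36, the widest being mesothelial markers (2.62, on 41 and 222 UMIs), with AT1 markers at 1142 and 1644 CPM (0.53), matrix fibroblast markers (0.47) and club cell markers (0.41). Their part in the result was not tested. gCap-like cells, the general capillary endothelium, had 6086 and 9371 CPM for the summed members, and arterial-like cells 12664 and 17856 CPM. Every member was higher in the mutant in both endothelial types. For these cells the lists of other blood endothelial types hold the shared genes that also gated them as endothelial. In arterial-like cells 9 of 13 marker lists of other types were higher (median log2 ratio 0.38, pericyte markers widest at 1.28), and in gCap-like cells 7 of 15 were higher and 8 lower (median -0.10, mesothelial markers widest at 2.05). The part of these in the result was not tested.

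In 2 cell types the summed members were not higher in the mutant. In myofibroblast-like cells, which held the highest levels, the log2 ratio of the summed members was -0.08, with Fos at 15880 and 15003 CPM, Junb at 3165 and 2562 CPM (-0.31) and Egr2 at 108 and 181 CPM (0.75). Of the 10 members 4 were higher, with 3 intervals above 0 and 5 below. After thinning to 700 UMIs the mean cell held 29.9 and 30.0 member UMIs, so no direction was held there. Of 15 marker lists of other types with at least 10 UMIs in these cells, 11 were higher, from -0.69 for arterial markers (2190 and 1362 CPM) to 1.16 for club cell markers (643 and 1440 CPM). The immune gate, after depletion of CD45+ cells, left 57 control and 39 mutant cells. There Fos was 1522 and 1286 CPM (-0.24), Egr1 2408 and 1582 CPM (-0.61) and Egr3 227 and 90.6 CPM (-1.32), the value at least 2-fold lower in this pair, where 8.79% of all genes tested in immune cells were. Atf3 was higher even there, at 33.0 and 78.5 CPM on 16 and 26 UMIs (1.25, with an interval of 0.30 to 2.25), where 9.28% of genes were at least 2-fold higher. The 7 immune markers summed to 4390 and 3548 CPM in these cells, and which immune cells they were was not resolved. Among markers of other types, the 5 of club cells summed to 292 and 1111 CPM, the 8 of AT2 cells to 1647 and 2470 CPM, the 6 of lymphatic cells to 48.5 and 15.1 CPM and the 7 of smooth muscle to 41.2 and 18.1 CPM. Their part in the result was not tested.

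The Hgf pair asked the same of the lung when pericytes lack Hgf, the ligand of the receptor Met. Here the members did not share a direction. The median log2 ratio of the summed members was -0.11 over 16 cell types, from -1.10 in immune to 0.23 in other blood endothelial cells, with 3 intervals above 0, in arterial-like, aCap-like and other blood endothelial cells, and 10 below. Of 155 member and cell type values, 20 were at least 2-fold lower in the mutant, beside 9.65% of all 188806 gene and cell type values, and 5 were at least 2-fold higher, beside 9.16%. With at least 3000 UMIs per cell the lower values were 12 of 110 and the median was -0.041, and the share of all values was not counted at that limit. Without Jund the sum turned from below to above 0 in AT1-like (0.13), gCap-like (0.04), lymphatic-like (0.03) and venous-like cells (0.0012). The free RNA had 0.18. Club cell markers were higher in the mutant in 15 of 15 other cell types (median log2 ratio 1.40), as they were in 16 of 16 in the Bdnf pair (0.79). The medians of all marker lists in other types ran from -0.31 for adventitial fibroblast to 1.80 for mesothelial markers in the Hgf pair. In the Bdnf pair they ran from -0.35 for immune to 1.89 for mesothelial markers. AT1 markers had 0.70 and 0.67 in the Hgf and Bdnf pairs. The part of these markers was not tested. With median-of-ratios scaling, which moved a cell type by up to 0.35, the sum turned from -0.01 to 0.07 in gCap-like and from -0.02 to 0.03 in venous-like cells, and kept its sign in the other types.

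Atf3 was lower in the Hgf iPCKO lung in 16 of 16 cell types, with a median log2 ratio of -0.93 and 14 intervals below 0. It was at least 2-fold lower in 7 of them, beside 9.65% of all gene and cell type values of this pair. In AT2-like cells it was 48.1 CPM in control and 20.8 CPM in mutant cells (-1.21), in gCap-like cells 89.6 and 38.4 CPM (-1.22), in venous-like cells 577 and 307 CPM (-0.91) and in myofibroblast-like cells 1276 and 625 CPM (-1.03). The intervals that held 0 were those of matrix fibroblast-like cells and of pericyte-like cells, the latter with 7 and 7 UMIs. In the free RNA Atf3 was 197 and 158 CPM (-0.32). Atf3 was thus the member with the same sign in every cell type of both lung pairs but myofibroblast-like in the Bdnf pair, and that sign was opposite in the 2 pairs. Each pair uses 1 of the 2 control lungs, between which Atf3 was higher in the Hgf control in 16 of 16 cell types (median 1.07).

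Junb and Egr2 went against Atf3 in the Hgf pair. Junb was higher in 13 of 16 cell types (median log2 ratio 0.21), for example 142 and 252 CPM in AT1-like cells (0.83) and 1401 and 2021 CPM in arterial-like cells (0.53), and lower in immune (-1.24), myofibroblast-like (-0.43) and AT2-like cells (-0.05, with an interval that held 0). Egr2 had a median of 0.53 and was higher in 11 of 14 cell types with enough UMIs, the lowest being immune cells (-1.04). It was at least 2-fold higher in 4 types, beside 9.16% of all values of this pair. These were matrix fibroblast-like cells (1.33), arterial-like cells with 13.5 and 73.4 CPM on 11 and 82 UMIs (2.45), gCap-like cells with 8.06 and 24.6 CPM (1.61) and other blood endothelial cells with 20.9 and 52.1 CPM (1.32). For the endothelial types, the lists of other types include those of blood endothelial types that share genes with their own gate. Of the marker lists of other types, 10 of 13 were higher in arterial-like cells (median log2 ratio 0.74, up to 1.97 for ciliated markers) and 10 of 15 in gCap-like cells (0.32, up to 2.86 for mesothelial markers). In other blood endothelial cells 10 of 16 were higher (0.22, up to 1.80 for mesothelial markers) and in matrix fibroblast-like cells 7 of 13 (0.13, up to 2.01 for lymphatic markers). The part of these markers was not tested. In the free RNA Egr2 was 22.7 and 46.8 CPM (1.04) and Junb 544 and 801 CPM (0.56), so both were higher there as well.

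AT2-like cells, on 5749 and 3947 cells, carried much of the lower side. Fos was 699 CPM in the Hgf control and 290 CPM in the mutant (-1.27), Fosb 218 and 94.6 CPM (-1.20), Egr1 468 and 200.2 CPM (-1.23) and Nr4a1 124 and 61.6 CPM (-1.02). With Atf3 these were 5 values at least 2-fold lower, where 9.47% of all genes tested were. Jun was 886 and 650 CPM (-0.45), while Junb, Egr2 and Egr3 had intervals that held 0 and Jund was 998 and 1103 CPM (0.15). The lower members were therefore a subset in these cells, without Jund, Junb and the low Egr genes. The 8 AT2 markers summed to 120651 CPM in control and 93474 CPM in mutant cells, the 5 club cell markers to 676 and 1533 CPM, the 11 venous markers to 624 and 423 CPM (-0.56) and the 6 myofibroblast markers to 94.3 and 65.5 CPM (-0.52). Pericyte (-0.61) and smooth muscle markers (-0.67) were lower too, 8 of 15 lists of other types in all, and the median cell had 4773 and 3623 UMIs. Their part in the result was not tested.

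In immune cells of the Hgf pair, 103 in each library, all 10 members were lower in the mutant and 8 were at least 2-fold lower, beside 12.3% of all genes tested there. Nr4a1 was 1279 and 417 CPM (-1.62), Egr1 1798 and 632 CPM (-1.51), Egr3 125 and 25.2 CPM (-2.31) and Atf3 107 and 14.0 CPM on 70 and 15 UMIs (-2.93). The median cell had 4210 UMIs in the control and 8189 UMIs in the mutant, the opposite order to the medians of these libraries over all cells, and the 7 immune markers summed to 4404 and 3297 CPM. Of 12 lists of other types 6 were higher and 6 lower, from -1.47 for ciliated markers (17 and 10 UMIs) to 0.94 for AT1 markers (89.8 and 173 CPM), with arterial markers at 300 and 186 CPM (-0.69). Their part in the result was not tested. The share of each immune cell type was not resolved, so a change of level and a change of composition cannot be told apart. Myofibroblast-like cells, 132 and 521, had Fos at 13654 and 10634 CPM (-0.36) and Fosb at 3512 and 1568 CPM (-1.16), and their 6 own markers summed to 22592 and 14987 CPM. In these cells the 10 arterial markers summed to 3728 and 1738 CPM, the 7 smooth muscle markers to 1484 and 739 CPM, the 8 AT2 markers to 1259 and 589 CPM, the 8 pericyte markers to 410 and 118 CPM and the 5 club cell markers to 708 and 1872 CPM, whose part in the result was not tested.

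**Figure D5:**
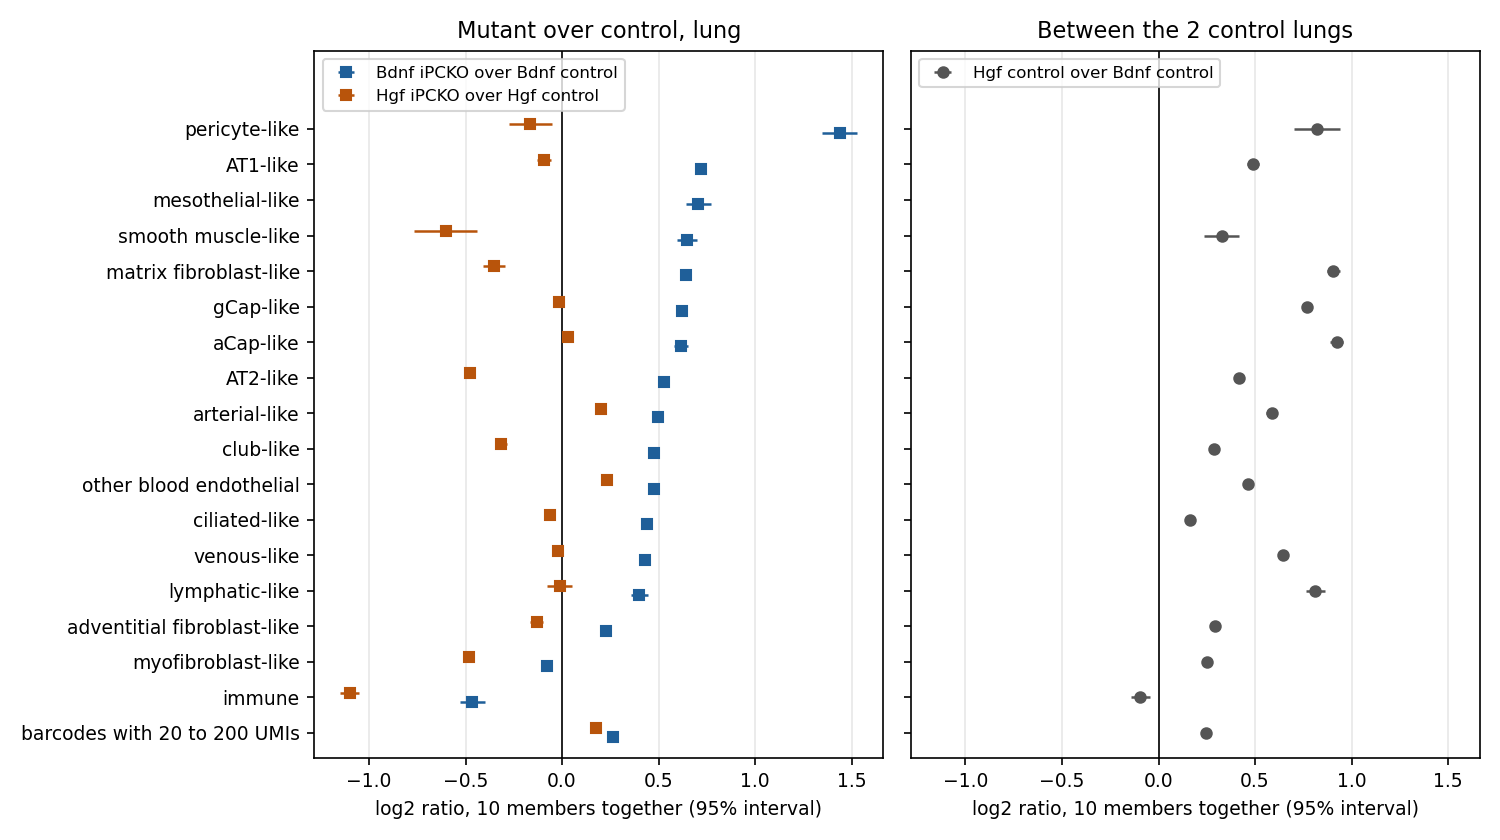
Log2 ratio of the 10 members together with its 95% counting interval in each lung cell type and in the free RNA: mutant over control in the Bdnf and Hgf pairs (left) and the Hgf control over the Bdnf control (right). Points of the Bdnf pair lie above 0 in 15 of 17 cell types, from -0.46 to 1.44, and those of the 2 control lungs above 0 in 15 of 16, from -0.09 to 0.92.

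The 2 control lungs, both floxed without Cre and of the same age, gave a difference between lungs without a deletion. They carried different floxed alleles, whereas the study names littermate controls for each mutant. Their difference may therefore hold line and litter differences that a pair need not hold. The summed members were higher in the Hgf control than in the Bdnf control in 15 of 16 cell types, with a median log2 ratio of 0.48 and a range from -0.09 in immune to 0.92 in aCap-like cells. Of 156 member and cell type values, 38 were at least 2-fold higher in the Hgf control and 3 at least 2-fold lower, where 7.18% and 10.6% of all 217049 values were. The Bdnf comparison shares the Bdnf control with this one, and the Hgf comparison the Hgf control, so the values of these 2 libraries enter both sides of what follows. Set beside it, the difference between mutant and control was larger than that between the control lungs in 8 of 16 cell types in the Bdnf pair and in 5 of 16 in the Hgf pair. Among the 4 lungs the Bdnf control was lowest in 11 of 16 cell types and the Hgf iPCKO in 5, while the highest was the Bdnf iPCKO in 6, the Hgf control in 6, the Hgf iPCKO in 3 and the Bdnf control in 1.

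Member by member, Jund and Atf3 separated the control lungs most evenly. Jund was higher in the Hgf control in 16 of 16 cell types, with a median log2 ratio of 1.18, for example 466 CPM in the Bdnf control and 1263 CPM in the Hgf control in gCap-like cells. Atf3 was higher in 16 of 16 with a median of 1.07, for example 258 and 577 CPM in venous-like cells. Nr4a1 had a median of 0.89 and Junb 0.68, while Fos had 0.24 and Egr2 0.07. In pericyte-like cells the summed members were 3510 CPM in the Bdnf control and 6192 CPM in the Hgf control, a log2 ratio of 0.82, beside 1.44 between the libraries of the Bdnf pair. In AT2-like cells they were 2749 and 3668 CPM, a log2 ratio of 0.42, beside 0.53 in the Bdnf and -0.47 in the Hgf pair. The Hgf libraries were also shallower and used a lower UMI limit, which cannot be told apart from the other differences between the control lungs.

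Compared with the free RNA of their own library, the gated cells as a whole differed by member. Fos, Jun, Junb and Jund were higher in cells in 6 of 6 libraries, with log2 ratios of cells over free RNA from 0.28 to 0.70 for Fos. Fosb was lower in cells in 6 of 6 libraries, from -1.60 to -0.44. In the Bdnf control, for example, Fos was 2125 CPM in cells and 1476 CPM in free RNA, while Fosb was 575 and 1472 CPM. Nr4a1 and Egr3 were lower in cells in 5 of 6 libraries and Atf3 in 4 of 6. The sum over members lay between -0.15 and 0.37, above 0 in 3 libraries and below 0 in the other 3, the Bdnf control and both Hgf libraries. Free RNA thus held a share of member UMIs close to that of cells, smaller in 3 libraries and larger in 3, with a different mix of members.

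Other genes of the same response were counted in lists by role, chosen, like the members, with earlier results of these data known. Srf is in both the immediate-early and the regulator list. Of 45 further immediate-early genes, the values over cell types had a median log2 ratio of 0.42 in the Bdnf pair, 0.11 in the Hgf pair and 0.17 in the Nodal pair. At least 2-fold higher were 100 of 715 values in the Bdnf pair (14.0%, beside 6.16% of all values), 88 of 637 in the Hgf pair (13.8%, beside 9.16%) and 16 of 299 in the Nodal pair (5.35%, beside 4.08%). At least 2-fold lower were 6, 62 and 5 (0.839%, 9.73% and 1.67%, beside 4.18%, 9.65% and 5.29%), so the lower side of the Hgf pair was at the background and the higher side of the Nodal pair near it. The medians of all genes per cell type lay between -0.10 and 0.08. In the Bdnf pair the genes with the largest median were Fosl1, another Fos relative (1.76, with enough UMIs in 10 of 17 cell types, from -0.93 to 2.74), Csrnp1, a nuclear factor (1.08), Maff, a small Maf protein (0.96), and Dusp5, a phosphatase that inactivates ERK (0.91). In the Hgf pair they were Per1, a circadian clock repressor that also responds acutely to cAMP (1.28, higher in 15 of 16 cell types), and on the lower side Klf2, a flow-induced endothelial factor (-0.93), Dusp6, an ERK phosphatase (-0.93), and Nfil3, a bZIP repressor (-0.92). In the Nodal pair they were Maff (0.65), Nr4a3, a relative of Nr4a1 (0.64), Trib1, a pseudokinase (0.59, higher in 7 of 7), and Arc, a synaptic activity gene (0.50, higher in 4 of the 6 cell types with enough UMIs, from -0.80 to 2.01). In astrocyte-like cells 44 of the further immediate-early genes had a median of 0.56. Of these, 6 were at least 2-fold higher and 0 lower, beside 3.22% and 4.27% of all genes tested there. In vSMC-like cells 42 of the further immediate-early genes had a median of 0.40.

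Heat shock genes, whose chaperones respond to protein damage, had list medians below 0 in the Bdnf and Hgf pairs and near 0 in the Nodal pair. Those of the summed members were above 0 in the Bdnf and Nodal pairs and below 0 in the Hgf pair. The 14 genes had a median log2 ratio of -0.13 in the Bdnf pair (5 of 237 values at least 2-fold higher, 2.11%, and 8 lower, 3.38%), -0.28 in the Hgf pair (5 of 218 higher, 2.29%, and 30 lower, 13.8%) and -0.019 in the Nodal pair (2 of 97 higher, 2.06%, and 0 lower). The share lower in the Hgf pair was above the 9.65% of all values, as was that of the members, and the other shares were under those of all values. In AT2-like cells of the Hgf pair the median was -0.39 for the heat shock genes and -0.73 for the members. Hsph1, an Hsp110 co-chaperone, had -0.53 in the Bdnf and -1.09 in the Hgf pair, and Chordc1, an Hsp90 co-chaperone, had -0.52, -0.97 and -0.51 in the Bdnf, Hgf and Nodal pairs. Hspb1 (-0.31) and Hsp90ab1 (-0.26) completed the Bdnf pair, Dnaja1 (-0.51) and Hspd1 (-0.50) the Hgf pair, and Hspb1 (0.21), Hspa1b (-0.18) and Dnajb4 (0.11) the Nodal pair. Genes of the list differed in sign. In the Bdnf and Hgf pairs Hspa1a had 0.16 and 0.30, Hspa1b 0.14 and 0.18 and Bag3 0.09 and 0.27. In astrocyte-like cells of the Nodal pair the heat shock median was -0.01, beside 0.84 for the members.

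The 20 regulators, which include SRF, its ETS partners, the CREB family, the ERK and JNK kinases and the NAB corepressors of Egr proteins, stayed close to 0. Their medians were 0.03 in the Bdnf pair (7 of 335 values at least 2-fold higher, 2.09%, and 4 lower, 1.19%), -0.09 in the Hgf pair (13 of 303 higher, 4.29%, and 21 lower, 6.93%) and 0.04 in the Nodal pair (4 of 139 higher, 2.88%, and 2 lower, 1.44%), each share under that of all values. The widest medians were those of Elk3 (0.24) and Mapk3 (-0.23) in the Bdnf pair, Srf (-0.87, lower in the mutant in all 13 cell types with enough UMIs) and Crem (-0.73) in the Hgf pair, and Crem (-0.35) and Nab1 (0.19) in the Nodal pair.

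Across the 66 lung sums the genes other than members whose levels were most like those of the summed members, among 10480 genes, were Ier5 (Pearson r on the log2(CPM + 1) scale of 0.88), Ier2 (0.87), Zfp36 (0.86), Hexim1 (0.83) and Btg2 (0.82). Of the members, Egr1 was nearest to the sum it is part of (0.98) and Jund farthest (0.56). Across the 14 cortex sums, among 10983 genes, the nearest were Stom (0.97), Atl3 (0.96), Gm11914 (0.94), Cebpd (0.94) and Ech1 (0.94), and Egr3 had -0.40. These are descriptions over sums that share libraries, depth and cell types, and the 14 cortex points come from 2 libraries.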

How the data were processed

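Single-cell suspensions of mouse lung and cortex were profiled on the BD Rhapsody platform, and the authors aligned reads with STAR 2.7.10a to GRCm39/mm39 and deposited cell by gene matrices of estimated counts of UMIs, in which 8.97 to 10.5% of entries are fractional because reads that map to several genes were shared out. Total UMIs per library ranged from 33889545 to 186701379, and totals include barcodes without a cell. No column of another sample was present (0). Groups were taken from the sample labels, with 1 library of 2 pooled mice per genotype, so no p-value was computed.

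Barcodes with at least 1500 UMIs (700 in the Hgf libraries) were kept and gated on marker lists: a cell needed a score of at least 0.2 for its best type and a second-best score of at most 0.6 of it, which also leaves out cells with markers of 2 types. No doublet caller was run. Estimated counts were summed per library and cell type. A ratio needed at least 10 UMIs in both libraries together, a count of 0 was set to 3 UMIs, and a call was at least 2-fold. The exact interval, and a ratio with 0.5 UMIs added to each count, were tested on Poisson counts simulated from astrocyte-like cells. The ratio as reported, without that addition, was not simulated. Named genes were all 10 members, per pair the 4 other immediate-early and the 4 heat shock genes and the 2 regulators with the widest median among those with enough UMIs in most cell types, and the 5 genes most like the summed members per tissue. Hspa1a, Hspa1b and Bag3 were named besides, for medians against that of their list in both lung pairs. The members and lists were chosen with earlier results of these data known. Sums of markers of other cell types were added after seeing the data. Python 3.11.15, numpy 2.4.6, scipy 1.17.1, pandas 2.3.3 and matplotlib 3.10.9 were used. The alternatives tried were other UMI and mitochondrial limits, a stricter gate, median-of-ratios scaling, equal weight per cell, thinning to 700 UMIs, rounded counts, other minimum UMIs per gene, the sum without Jund and the median over members. The promoter windows of Egr1 and Egr3 are not reported here.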

Additional observations from a re-analysis of the deposited data

Results flagged for a closer look

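In each pair the summed members were higher in the mutant in some cell types and lower in others. They were higher in 15 of 17 in the Bdnf pair, 3 of 16 in the Hgf pair and 4 of 7 in the Nodal pair. The widest value on each side is given here, and none of these differences was tested, since each genotype is 1 library. In the Bdnf pair the log2 ratio was 1.44 in pericyte-like cells (98 and 112 cells) and -0.46 in immune cells (57 and 39 cells). In the Hgf pair it was 0.23 in other blood endothelial cells and -1.10 in immune cells. In the Nodal pair it was 0.76 in astrocyte-like cells and -0.25 in microglia-like cells. AT2-like cells had opposite signs in the lung pairs, with 0.53 in the Bdnf pair and -0.47 in the Hgf pair, beside 0.42 between the 2 control lungs.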

How the results depend on the processing

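Of 103 values under alternative settings, 82 stayed within the counting interval or within 1.5 times the count, 21 moved and 0 reversed. A reversal could be called for log2 ratios only, since a count could only stay or move. For a median over cell types, the interval ran from the median of the lower to the median of the upper bounds. The sign changes of single cell types given for the Hgf pair are not among these values. The median log2 ratio of the summed members in the Bdnf pair (0.50) was 0.53 without the 1% of cells with most UMIs, 0.59 with the stricter gate, 0.55 with cells weighted equally, 0.55 thinned to 700 UMIs, 0.52 without Jund and 0.64 as the median over members. Its 1 value at least 2-fold lower became 0 at 3000 UMIs and 0 with equal weights. The Hgf median (-0.11) was -0.041 at 3000 UMIs, -0.16 with equal weights and -0.20 thinned. Its 5 higher values became 3 at a minimum of 50 UMIs per gene, and its 20 lower values 12 at 3000 UMIs per cell, where 110 values remained in place of 155. In astrocyte-like cells the ratio (0.76) was 0.74 with the stricter gate, 0.83 with equal weights, 0.81 without Jund and 0.84 as the median over members. The 4 higher values of the Nodal pair became 1 when thinned, with 65 values left of 70, and its 0 lower values became 1 at 3000 UMIs, 1 at a mitochondrial share up to 20% and 1 without a minimum of UMIs. The cause of these moves was not tested, also where fewer values remained. The share of all values passing 2-fold was not counted at the alternative settings. Free RNA taken from barcodes with 50 to 150 UMIs gave 0.26, 0.18 and -0.12 in the Bdnf, Hgf and Nodal pairs.

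No paired analysis was possible because each group is 1 library. Intervals cover counting error only, and mouse, batch, time of day and handling cannot be told apart from genotype. Egr2, Egr3 and Atf3 rest on few UMIs in small cell types.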
